A study of Mus musculus with 6 samples.

Results

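The REST and CoREST repressor genes were followed in the embryonic brain. The set comprised 7 genes, Rest, Rcor1, Rcor2, Rcor3, Kdm1a, Sin3a and Sin3b, taken by gene symbol from a table of 53801 genes. All 7 were matched by 1 gene each and all 7 passed the filter on low counts, so none was lost. Polyadenylated RNA had been sequenced from whole brains of 6 C57BL/6 mouse embryos at stage E16.5. There were 3 Bahd1-KO embryos (genotype Bahd1-/-) and 3 Bahd1-WT embryos (Bahd1+/+), produced by matings of Bahd1+/- mice, with no other treatment. The null allele was constitutive, so BAHD1 was lost in every cell type of the embryo and not in the brain alone. BAHD1 is a scaffold on which histone deacetylases and methyltransferases assemble into repressive chromatin, and the comparison asked whether its loss changed gene expression before birth. Below, KO and WT stand for Bahd1-KO and Bahd1-WT embryos, and 3 values in a row are those of replicates 1, 2 and 3 in that order.

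REST is a zinc-finger protein that binds a DNA element named RE1 near neuronal genes and keeps them silent in stem cells, progenitors and non-neuronal tissues, and its level falls as neurons mature. REST recruits repressors through separate ends of the protein. One end binds the SIN3 scaffolds (SIN3A, SIN3B), which carry histone deacetylases, and the other binds the CoREST scaffolds (RCOR1, RCOR2, RCOR3), which hold the histone demethylase KDM1A (LSD1) together with the deacetylases HDAC1 and HDAC2.

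The DNA element through which REST acts was looked up in RefSeq promoter windows of GRCm38.p6, each of 300 bases (250 before to 50 after an annotated start). The motif was written as TTCAGCACC, 2 bases of any kind, then GGACAG, and was read on both strands with up to 2 mismatches over its 15 fixed letters. It was found in the windows of 45 of 26742 genes (0.168%), but matches on an autosome named below with the tested genes were left out. This share and the next count can thus be too low. Among 20 genes long described as REST targets that had a window, 3 held it, namely Celsr3, which encodes a seven-pass cadherin, Gria2, which encodes an AMPA receptor subunit, and Syn1, which encodes a synaptic vesicle protein. Each of these 3 differed from the motif by 1 letter. Lhx3 and Osbp2 are shown beside them because their windows matched every fixed letter, and were chosen for that match outside the rule for named genes. Capitals mark the matched 17 bases, read 5′ to 3′ on the strand of the gene, and where the motif lies on the opposite strand its reverse complement appears.
Celsr3 (chr9:108825906-108825946, + strand, motif on the strand of the gene): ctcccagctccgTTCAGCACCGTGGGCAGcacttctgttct
Gria2 (chr3:80802977-80803017, - strand, motif on the opposite strand): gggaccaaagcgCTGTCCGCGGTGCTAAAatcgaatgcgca
Syn1 (chrX:20921122-20921162, - strand, motif on the strand of the gene): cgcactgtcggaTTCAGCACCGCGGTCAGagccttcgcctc
Lhx3 (chr2:26208264-26208304, - strand, motif on the strand of the gene): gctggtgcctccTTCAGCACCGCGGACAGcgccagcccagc
Osbp2 (chr11:3774779-3774819, - strand, motif on the opposite strand): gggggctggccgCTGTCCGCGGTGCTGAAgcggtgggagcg

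The motif centre lay before the RefSeq start of the window in all 5, by 119 bases in Celsr3, 162 in Gria2, 224 in Syn1, 35 in Lhx3 and 131 in Osbp2. That start need not be the outermost start of the gene. The motif of Osbp2 lies inside the gene, annotated in GENCODE from 3703731 to 3863903, and Celsr3 is annotated there from 108826320. None of the 6 members with a window held the motif, and Rest had no window in the table. A match describes letters only and does not show binding, and no match says only that these letters are not in the window.

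One library stood apart before any comparison. Total counts per embryo ranged from 61724000 to 91782802, and ribosomal RNA genes took 44.7% of the counts of Bahd1-KO replicate 3 against 0.250 to 0.615% in the other 5 embryos. Summed over 10 neuron markers, this embryo held 1742 CPM against 7264 to 9351 in the others, with all 10 markers detected in each embryo. CPM are read counts relative to the size of each library after TMM scaling, which sets libraries of unlike composition on a common scale. Dcx, which marks young neurons and is named outside the rule for named genes, was at 33.0 in this embryo against 1865 to 3713 CPM in the others. This embryo was the lowest for 6 of the 10 neuron markers, and for 50.7% of all protein-coding genes of at least 10 CPM. For 2 of the 10 markers it lay above the mean log2 CPM of the other 5 embryos. Summed over 8 lung markers it held 1399 CPM against 14.8 to 28.4, over 8 skeletal muscle markers 141 against 4.49 to 14.3, and over 8 connective tissue markers 2817 against 432 to 527. Its sums over 7 blood markers, 420 against 133 to 592, and over 10 progenitor markers, 1578 against 1365 to 1738, lay within the range of the others. It was the lowest for 7 of these progenitor markers and the highest for 3. In bulk tissue, fewer cells of a type and less RNA per cell cannot be told apart. The part that these differences had in the values below was not tested, and the log2 fold changes of members, partners and target genes are given with and without this embryo. The targeted gene followed the labels, with 2, 10 and 6 counts of Bahd1 in KO embryos against 1971, 3102 and 3470 in WT embryos. Its log2 fold change was -8.40 (SE 0.606), with an adjusted p of 0.0462 by the quasi-likelihood test of edgeR.

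No difference between genotypes passed the test for any of the 7 repressor genes. At an adjusted p under 0.05 (edgeR quasi-likelihood test, Benjamini-Hochberg over 24739 genes), 0 of the 7 were called, where 1 of all genes tested was (0.00404%), namely Bahd1. At an unadjusted p under 0.05 the members again numbered 0, where 1156 genes tested passed (4.67%). DESeq2 called 8 of 23981 genes (0.0334%) and 0 of the members. The levels of both genotypes overlapped for every member, whereas they did not overlap for 6.71% of the genes tested. Fitted log2 fold changes of the members (Bahd1-KO minus Bahd1-WT) were above zero for 4 and below zero for 3, with a median of 0.02, against a median of 0.06 over all genes tested.

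**Figure D1:**
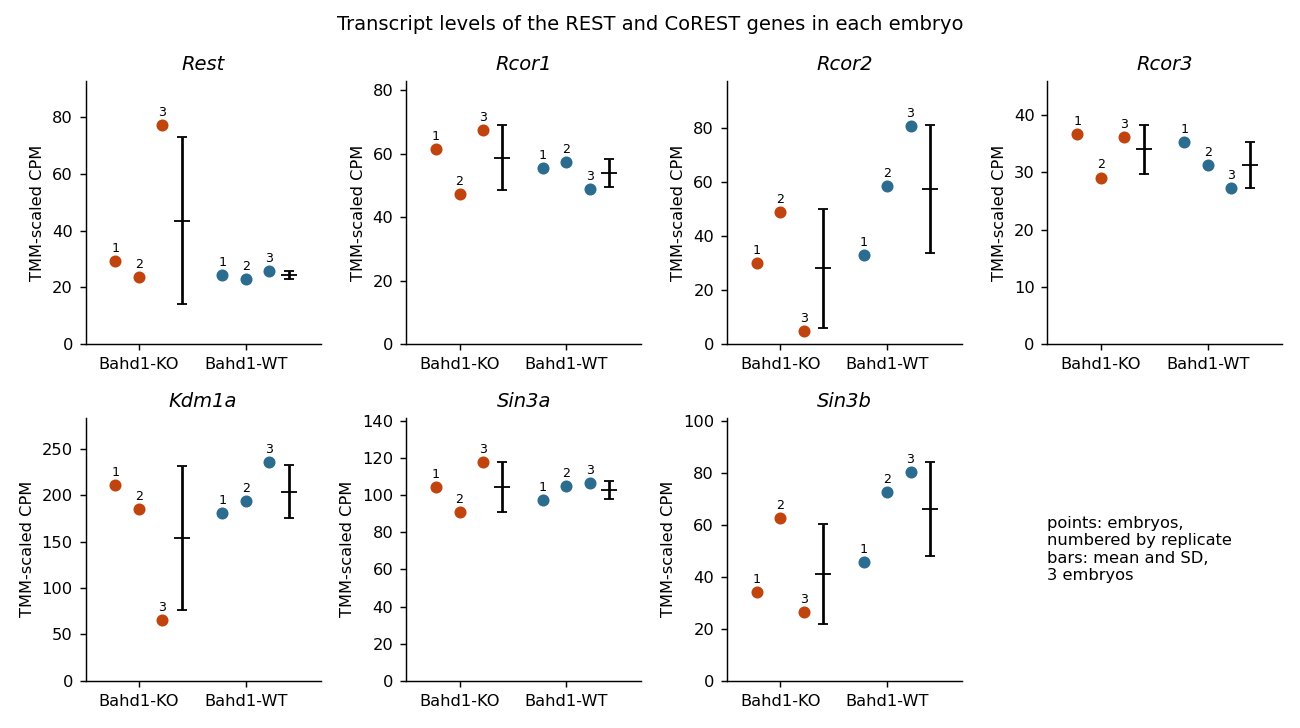
TMM-scaled CPM (y axis, from 0) of each of the 7 genes in each embryo, by genotype (x axis). Points are embryos numbered by replicate and bars give mean and SD over 3 embryos. Bahd1-KO replicate 3 is the highest of the 6 points for Rest, at 77.2, and the lowest for Rcor2, at 4.97, Kdm1a, at 65.8, and Sin3b, at 26.6.

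Rest (ENSMUSG00000029249, chromosome 5, 77265491 to 77286432, + strand, GRCm38), the DNA-binding subunit, was at 29.4, 23.6 and 77.2 CPM in KO embryos against 24.4, 22.9 and 25.9 in WT embryos. The other 5 embryos lay close together and Bahd1-KO replicate 3 stood far above them, at 3.17 times the Bahd1-WT mean. Its log2 fold change was 0.83 (SE 0.459, 95% interval -0.25 to 1.91, adjusted p = 0.696 by edgeR). Left without that embryo, the estimate was 0.11 with an interval of -0.39 to 0.60, so that a fold from 0.763 to 1.52 remained within the error. The mean of the WT embryos was 24.4 ± 1.46 CPM (SD, n = 3) and that of the KO embryos 43.4 ± 29.4 CPM (SD, n = 3).

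Among the CoREST scaffolds, Rcor1 (ENSMUSG00000037896, chromosome 12, 111039351 to 111115901, + strand), which encodes the founding CoREST protein, was at 61.4, 47.4 and 67.4 CPM in KO embryos against 55.3, 57.4 and 48.9 in WT embryos. The genotypes were interleaved, and the highest embryo was 1.42 times the lowest. Its log2 fold change was 0.13 (SE 0.236, 95% interval -0.43 to 0.68) and came to -0.0022 without Bahd1-KO replicate 3.

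Rcor2 (ENSMUSG00000024968, chromosome 19, 7267325 to 7275225, + strand), which encodes the CoREST paralogue prominent in the developing nervous system, had the widest spread of the 7. It was at 30.2, 49.0 and 4.97 CPM in KO embryos against 33.0, 58.4 and 80.5 in WT embryos. Both genotypes ran over a wide range, and the lowest value, in Bahd1-KO replicate 3, was 11.5-fold under the Bahd1-WT mean. The highest embryo was 16.2 times the lowest, a spread above that of 97.7% of 9998 protein-coding genes with a mean of at least 10 CPM. Even over the other 5 embryos the spread was 2.67 times, above that of 92.04% of those genes. The log2 fold change was -1.03 (SE 0.741, 95% interval -2.77 to 0.71, adjusted p = 0.696 by edgeR) and -0.54 without Bahd1-KO replicate 3, with an interval of -1.45 to 0.37. These intervals are wide, and a fold from 0.146 to 1.64 lay within the first.

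Rcor3 (ENSMUSG00000037395, chromosome 1, 192098546 to 192138062, - strand), the third CoREST gene, was at 36.8, 29.1 and 36.2 CPM in KO embryos against 35.3, 31.3 and 27.3 in WT embryos. No embryo stood apart, Bahd1-KO replicate 3 included. The log2 fold change was 0.12 (SE 0.239, 95% interval -0.44 to 0.68), and 0.06 without that embryo.

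Kdm1a (ENSMUSG00000036940, chromosome 4, 136550540 to 136602723, - strand), which encodes the demethylase of mono- and dimethylated lysine 4 of histone H3, was at 211, 185 and 65.8 CPM in KO embryos against 181, 194 and 236 in WT embryos. Only Bahd1-KO replicate 3 was low, 3.10-fold under the Bahd1-WT mean, and the other 5 differed by at most 1.30 times. The log2 fold change was -0.40 (SE 0.430, 95% interval -1.41 to 0.61) with all embryos and -0.05 (95% interval -0.51 to 0.40) without this one.

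Of the SIN3 scaffolds, Sin3a (ENSMUSG00000042557, chromosome 9, 57072040 to 57128366, + strand) was at 104, 90.9 and 118 CPM in KO embryos against 97.2, 105 and 106 in WT embryos. It was the steadiest of the 7 over all embryos, with a highest value 1.30 times the lowest, a spread wider than that of only 4.72% of the 9998 genes. The log2 fold change was 0.02 (SE 0.217, 95% interval -0.49 to 0.53), and -0.09 without Bahd1-KO replicate 3. Sin3b (ENSMUSG00000031622, chromosome 8, 72723285 to 72758201, + strand) was at 34.1, 62.8 and 26.6 CPM in KO embryos against 45.6, 72.5 and 80.3 in WT embryos. KO replicates 1 and 3 lay under every WT embryo and KO replicate 2 lay among them. The log2 fold change was -0.68 (SE 0.392, 95% interval -1.61 to 0.24, adjusted p = 0.696 by edgeR), and -0.45 (95% interval -1.26 to 0.35) without Bahd1-KO replicate 3. Over the 5 other embryos the highest was 2.36 times the lowest, so Sin3b, like Rcor2, varied within each genotype as well.

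**Figure D2:**
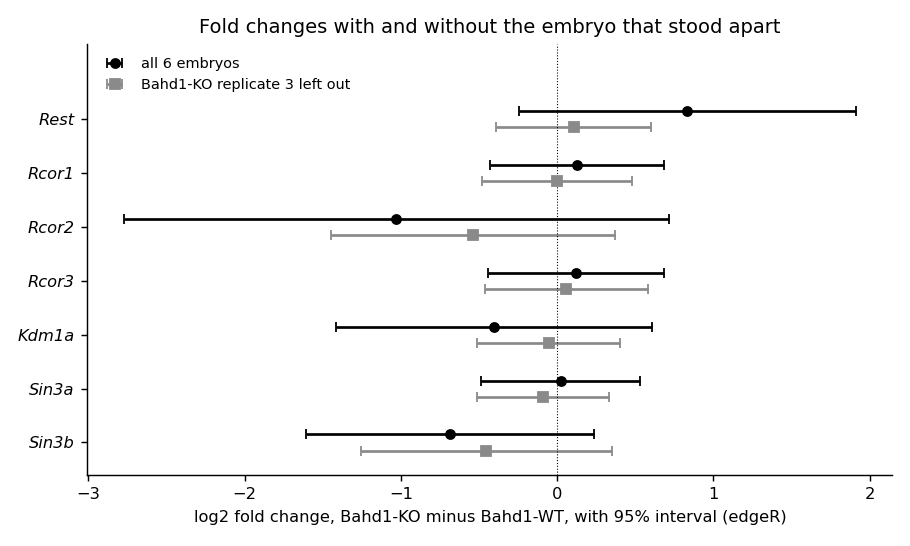
Log2 fold change of each gene (x axis, Bahd1-KO minus Bahd1-WT) with its 95% interval from edgeR, with all 6 embryos (black circles) and without Bahd1-KO replicate 3 (grey squares). Every interval crosses zero in both fits, and the estimate for Rest goes from 0.83 to 0.11.

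Without Bahd1-KO replicate 3, 0 of the 7 members were called at an adjusted p under 0.05, where 4 of 23334 genes tested were (0.0171%). The members' adjusted p-values ran from 0.981 to 0.998 by edgeR in that fit, and their median log2 fold change was -0.05 against -0.01 over all genes. Over all protein-coding genes of at least 10 CPM, this embryo was the lowest of the 6 for 50.7% and the highest for 25.6%. Among the 7 members it was the lowest for 3 (Rcor2, Kdm1a, Sin3b) and the highest for 3 (Rest, Rcor1, Sin3a).

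The levels were also read beside GC content, since the level of GC-rich genes as a whole differed between embryos. The longest annotated transcript held 61.6% G and C in Rcor2, 56.1% in Sin3b, 51.7% in Kdm1a, 48.4% in Rcor1, 48.3% in Sin3a, 47.2% in Rest and 43.2% in Rcor3. Protein-coding genes were split by GC content into 5 bins of equal size. In the bin richest in GC (55.6 to 71.3%), the median log2 deviation from the mean of the 6 embryos was -0.64, 0.37 and -0.60 in KO embryos and -0.21, 0.51 and 0.53 in WT embryos. Sin3b, whose GC content lies in that bin, deviated by -0.54, 0.34 and -0.90 in KO and by -0.12, 0.54 and 0.69 in WT embryos. The order of the embryos was the same for Sin3b and for this bin except that the lowest 2 changed places. Rcor2, in the same bin, deviated by -0.10, 0.60 and -2.70 in KO and by 0.03, 0.85 and 1.32 in WT embryos, and its value in Bahd1-KO replicate 3 lay far below the median of the bin. In that embryo Rest deviated by 1.35 and Kdm1a by -1.34, where the bins that hold their GC content had medians of 0.02 and -0.15.

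When each embryo was corrected for GC content, an alternative chosen after seeing the data, the log2 fold change of Rcor2 was -0.42 and that of Sin3b -0.31, while that of Rest was 0.81. With the correction and without Bahd1-KO replicate 3, the same genes gave 0.02, -0.16 and 0.05. None of the 7 was called by edgeR in either fit.

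**Figure D3:**
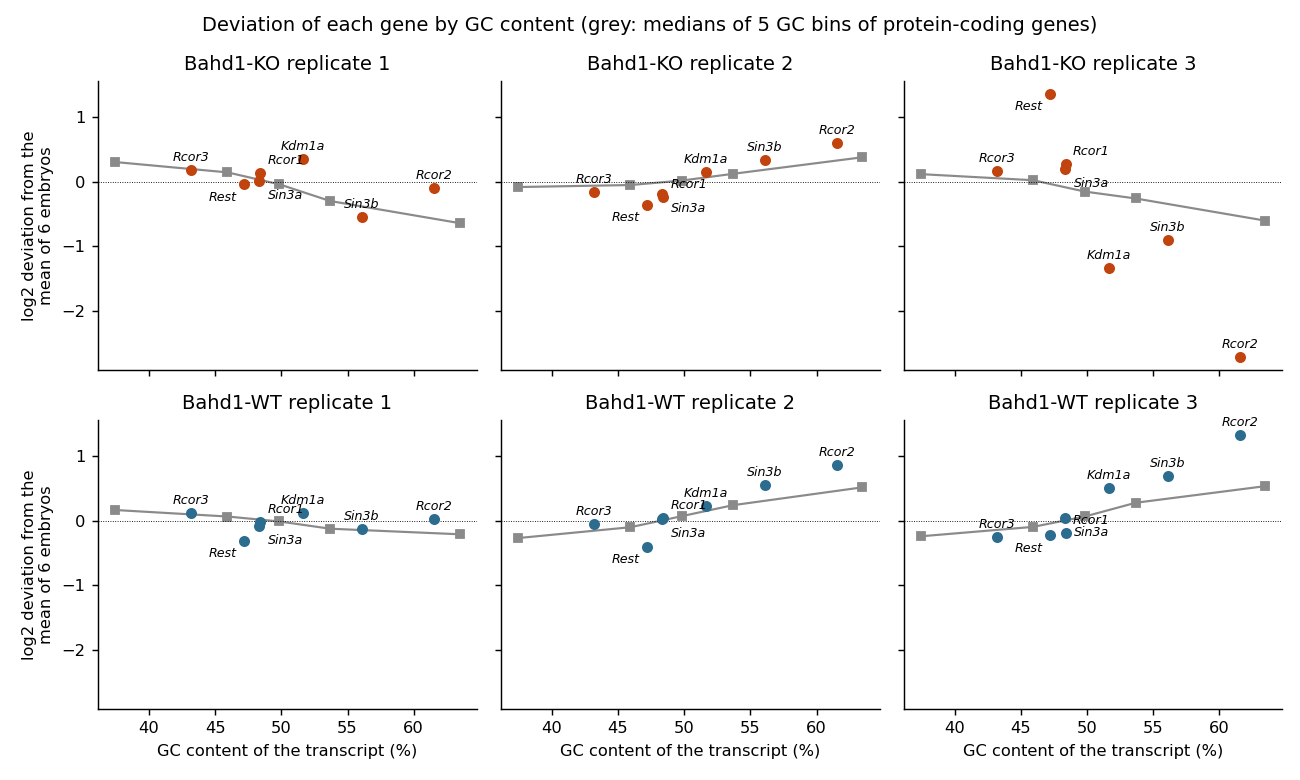
Log2 deviation from the mean of the 6 embryos (y axis) against GC content of the longest transcript in % (x axis), in 1 panel per embryo. Coloured points are the 7 genes and the grey line joins the medians of 5 GC bins of protein-coding genes, drawn at the middle of each bin. In Bahd1-KO replicate 3 Rcor2, at -2.70, and Rest, at 1.35, lie far from the line.

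Levels between genes were compared per length, as RPKM, CPM divided by the kilobases of annotated exon. In the Bahd1-WT embryos the order was Kdm1a (39.3 ± 5.54 RPKM, SD, n = 3), Sin3a (19.1 ± 0.912), Rcor2 (18.2 ± 7.53), Rcor1 (9.48 ± 0.780), Sin3b (8.99 ± 2.47), Rest (3.38 ± 0.202) and Rcor3 (2.30 ± 0.295). The neighbours Sin3a and Rcor2 overlapped between embryos, as did Rcor1 and Sin3b, and the other neighbours did not. The DNA-binding subunit was thus among the lowest of the set and the demethylase the highest. The order below Kdm1a depends on the length used. The exons annotated for Rcor3, for example, add up to 13622 bases whereas its longest transcript has 3791. Taken per length of the longest transcript, an alternative chosen after seeing the data, Kdm1a was again the highest at 67.3 ± 9.47 RPKM (SD, n = 3), followed by Rcor2 (20.3 ± 8.42), Sin3a (19.8 ± 0.943), Sin3b (16.1 ± 4.42), Rcor1 (9.48 ± 0.780), Rcor3 (8.26 ± 1.06) and Rest (3.48 ± 0.208). On this scale Sin3b overlapped Sin3a and lay above Rcor1 in every WT embryo, Rcor2 overlapped Sin3a and Rcor1 overlapped Rcor3. In Bahd1-KO replicate 3 the first order read Sin3a, Kdm1a, Rcor1, Rest, Sin3b, Rcor3, Rcor2.

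The make-up of the CoREST scaffolds varied widely between embryos within both genotypes. Rcor2 took 41.4, 59.7 and 9.78% of the summed RPKM of the 3 CoREST genes in KO embryos against 45.9, 59.9 and 70.6% in WT embryos. Bahd1-KO replicate 2 and Bahd1-WT replicate 2 were nearly equal, and Bahd1-KO replicate 3 was far below the rest. Rcor1 took 46.9, 32.1 and 73.7% in KO embryos against 42.7, 32.7 and 23.8% in WT embryos. Per length of the longest transcript the share of Rcor2 was 34.2, 52.0 and 7.59% against 38.0, 53.0 and 64.4%, with the embryos in the same order. Sin3b took 19.3, 33.6 and 14.1% of the summed RPKM of the SIN3 scaffolds in KO embryos against 25.6, 33.6 and 35.6% in WT embryos. Per length of the longest transcript that share was 29.2, 46.6 and 22.2% against 37.2, 46.6 and 48.9%.

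**Figure D4:**
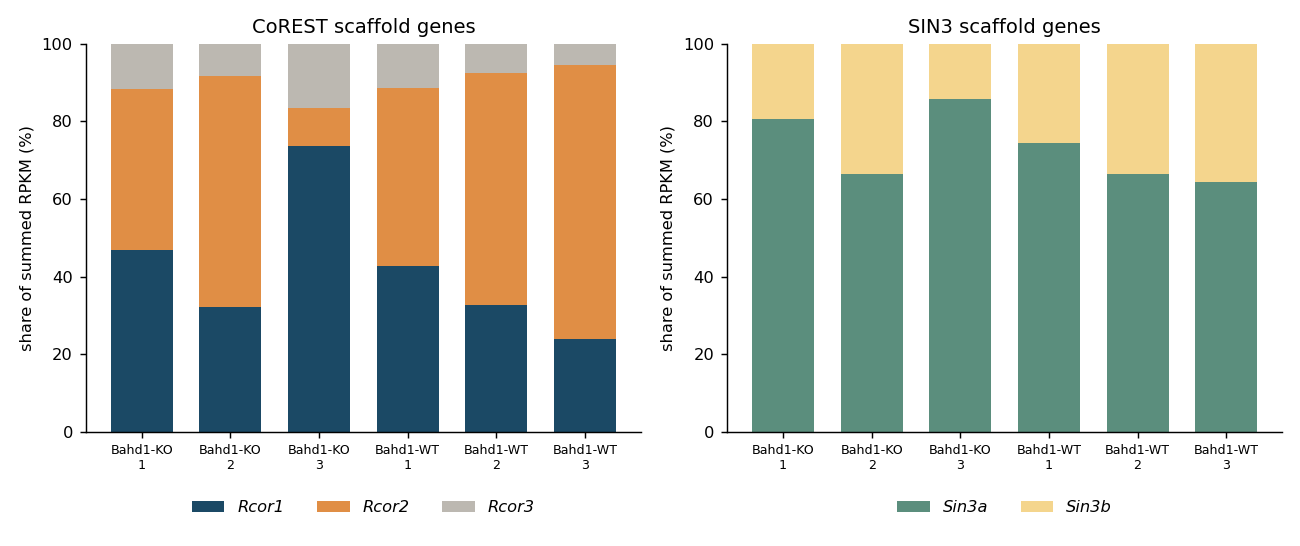
Share of the summed RPKM (y axis, %) that each CoREST scaffold gene (left) and each SIN3 scaffold gene (right) took in each embryo (x axis). The Rcor2 segment runs from 9.78% in Bahd1-KO replicate 3 to 70.6% in Bahd1-WT replicate 3.

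A ratio of counts within 1 library needs no scaling factor, and 3 such ratios were tested. The ratios were not corrected for GC content, and the part that it had in them was not tested. GC content was 61.6% for Rcor2 against 48.4% for Rcor1, and 56.1% for Sin3b against 48.3% for Sin3a. Counts of Rcor2 to Rcor1 stood at 0.491, 1.03 and 0.0737 in KO embryos against 0.597, 1.02 and 1.65 in WT embryos, a difference in mean log2 ratio of -1.58. Sin3b to Sin3a stood at 0.327, 0.690 and 0.225 against 0.469, 0.690 and 0.755, a difference of -0.76. Rest to Rcor1 stood at 0.479, 0.499 and 1.15 against 0.441, 0.400 and 0.529, a difference of 0.52. The genotypes overlapped in all 3 ratios, and each gave p = 0.3 in an exact two-sided permutation test, which is also its value after Benjamini-Hochberg adjustment over the 3. With 3 embryos against 3 this test cannot go below 0.1. Without Bahd1-KO replicate 3 the differences were -0.49, -0.40 and 0.11.

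The wider complexes gave no called gene either, on lists written with earlier results of these data known. Of 12 CoREST partners tested, 0 were called, with 3 fitted above zero and 9 below, a median log2 fold change of -0.24, and -0.12 without Bahd1-KO replicate 3. Gfi1b, 1 further partner, fell under the filter. Hdac2, the deacetylase of the core complex, was the most abundant, at 560, 443 and 221 CPM in KO embryos against 506, 351 and 448 in WT embryos (log2 fold change -0.09, which turned to 0.19 without Bahd1-KO replicate 3). Zmym2, a zinc-finger subunit, was at 336, 238 and 173 against 287, 215 and 217 CPM. Neither gene separated the genotypes.

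Zmym3, a related zinc-finger subunit on the X chromosome, was at 138.9, 158.5 and 52.0 CPM in KO embryos against 159.1, 194.6 and 159.3 in WT embryos. Its highest Bahd1-KO embryo lay just under the lowest Bahd1-WT embryo, so the genotypes did not overlap, but the log2 fold change of -0.55 did not pass (adjusted p = 0.696 by edgeR) and was -0.21 without Bahd1-KO replicate 3. The other partner without overlap was Phf21a, a reader of unmethylated lysine 4 of histone H3, at 99.5, 97.8 and 86.7 against 102, 123 and 105 CPM, named after its values were seen. Such genes numbered 2 of the 12 partners, where the genotypes did not overlap for 6.71% of all genes tested. The largest fitted differences among partners of at least 1 CPM were those of Ctbp1, a corepressor, with -0.78, and Gse1, with -0.77, and both overlapped between genotypes. Without Bahd1-KO replicate 3 they came to -0.47 and -0.53. Bahd1-KO replicate 3 was the lowest embryo for 9 of the 12 partners, and for 50.7% of all protein-coding genes of at least 10 CPM.

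Of 16 SIN3 partners tested, 0 were called, with 6 fitted above zero and 10 below, and the median log2 fold change was -0.07, or 0.05 without Bahd1-KO replicate 3. The histone chaperones Rbbp4, at 291, 258 and 196 against 245, 222 and 294 CPM, and Rbbp7, at 153, 137 and 239 against 149, 124 and 137 CPM, were abundant, with Arid4b, a DNA-binding subunit, next at 172, 112 and 164 against 138, 104 and 109 CPM. Rbbp7 was highest in Bahd1-KO replicate 3 and Rbbp4 lowest there. The largest fitted differences were -0.79 for Brms1 and -0.50 for Ing1, a reader of trimethylated lysine 4 of histone H3, or -0.66 and -0.34 without Bahd1-KO replicate 3. Sap130 was the single SIN3 partner of the 16 without overlap, where the genotypes did not overlap for 6.71% of all genes tested. It was at 61.4, 69.7 and 46.1 against 71.7, 97.9 and 79.2 CPM, and was named after its values were seen.

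Of 10 genes that act on REST or are recruited with it, 0 were called, with 5 above and 5 below zero and a median log2 fold change of -0.10, or -0.08 without Bahd1-KO replicate 3. The deubiquitinases Usp7 and Usp15 had log2 fold changes of 0.06 and 0.10, or 0.12 and 0.16 without that embryo. Ehmt2, which encodes the histone methyltransferase G9a, was at 52.8, 123 and 34.7 against 81.5, 145 and 151 CPM, a log2 fold change of -0.85 that did not pass (adjusted p = 0.696 by edgeR) and was -0.52 without that embryo. Ctdspl, a phosphatase recruited with REST, was at 18.0, 19.6 and 77.7 against 17.9, 18.3 and 20.1 CPM. Its pattern was that of Rest, level in 5 embryos and 4.14 times the Bahd1-WT mean in Bahd1-KO replicate 3, and its log2 fold change of 1.03 came to -0.01 without that embryo.

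REST target genes were read next, since a change in the repressor could be looked for in what it represses. Of 30 target genes tested, 0 were called and 1, Crh, had an unadjusted p under 0.05, where 4.67% of all genes tested did. A total of 11 were fitted above zero and 19 below, with a median log2 fold change of -0.19 against 0.06 over all genes, and of -0.17 against -0.01 without Bahd1-KO replicate 3. After the GC correction the median of the target genes was -0.080, and -0.074 with that embryo left out besides. Their summed level was 4731, 5012 and 2839 CPM in KO embryos against 5348, 5254 and 4571 CPM in WT embryos. Bahd1-KO replicate 3 was lowest, and the other embryos were close. In that embryo 13 of the 30 were at their lowest and 9 at their highest. Of all protein-coding genes of at least 10 CPM, 50.7% and 25.6% were.

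Stmn2, a growth-cone regulator of microtubules and the most abundant target, was at 1166, 1406 and 95.7 CPM in KO embryos against 1428, 1403 and 1389 in WT embryos. Syt4, a synaptotagmin, was at 539, 467 and 96.9 against 534, 399 and 364 CPM. Both were low only in Bahd1-KO replicate 3. Crh, which encodes corticotropin-releasing hormone, ran the other way, at 0.885, 1.60 and 23.5 against 1.35, 0.726 and 0.812 CPM, with a log2 fold change of 3.17 that did not pass (adjusted p = 0.696 by edgeR) and was 0.37 without that embryo. Glra1, a glycine receptor subunit, was at 0.137, 0.734 and 9.60 against 0.752, 0.578 and 0.198 CPM. L1cam, a neural adhesion molecule, was the only target gene of the 30 whose genotypes did not overlap, where 6.71% of all genes tested did not, at 224, 283 and 34.6 against 301, 446 and 312 CPM, and was named after its values were seen. Its log2 fold change was -0.97, and -0.49 without Bahd1-KO replicate 3.

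**Figure D5:**
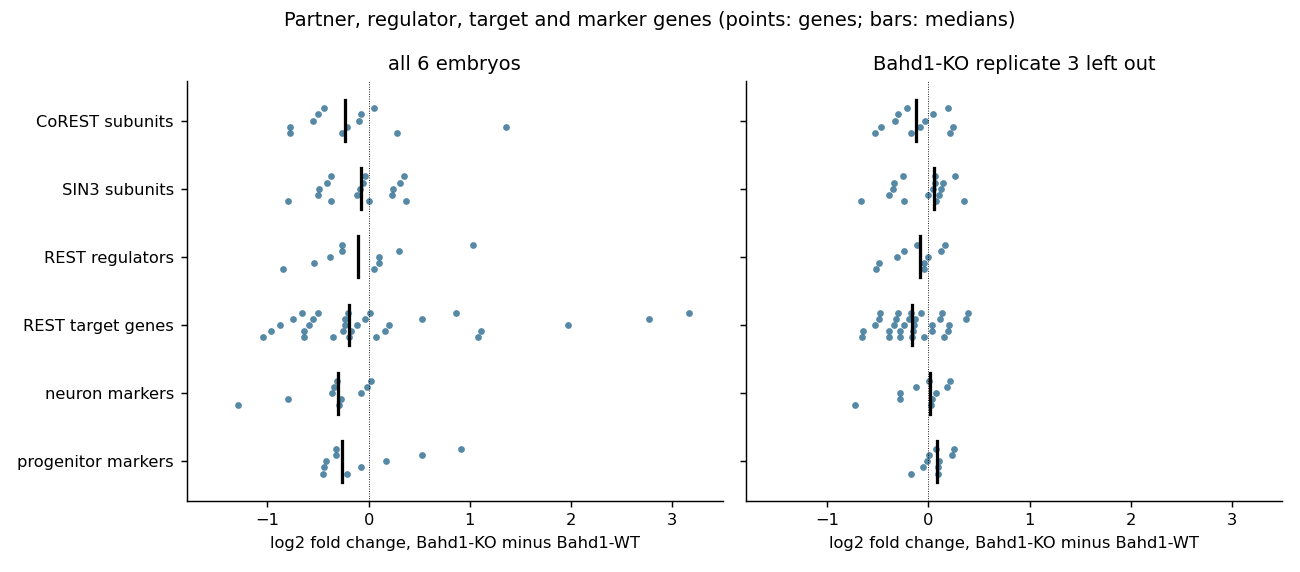
Log2 fold change (x axis, Bahd1-KO minus Bahd1-WT) of the tested genes of 6 lists (rows), with all 6 embryos (left) and without Bahd1-KO replicate 3 (right). Points are genes and bars are medians, which for REST target genes are -0.19 on the left and -0.17 on the right, and the long tails to the right seen with all embryos are gone on the right.

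The 3 target genes whose RE1 sequences are printed were not called, and their fitted differences were unlike in size. Celsr3 was at 71.0, 121 and 8.99 CPM in KO embryos against 85.5, 184 and 143 in WT embryos (log2 fold change -1.04, and -0.53 without Bahd1-KO replicate 3). Gria2 was at 1036, 573 and 225 against 778, 609 and 424 CPM (0.02, and 0.39 without that embryo). Syn1 was at 188, 189 and 136 against 238, 210 and 141 CPM (-0.20, and -0.07 without that embryo). All 3 were lowest in Bahd1-KO replicate 3 and overlapped between genotypes. Of the pair with every letter matched, Osbp2 was at 18.5, 29.8 and 13.4 against 25.6, 31.3 and 25.8 CPM, and Lhx3, a homeobox gene of motor neurons and pituitary, was under 0.1 CPM in every embryo.

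Matches on chromosome 18 had been left out of the 45 genes with the motif, so genes there are not covered here. Of the 45, 36 were matched by symbol and 33 were tested. The unmatched ones, such as Marchf4, were not looked up under other symbols. None was called by edgeR, 10 were fitted above zero and 23 below, and the median log2 fold change was -0.30, or -0.19 over 32 genes without Bahd1-KO replicate 3. After the GC correction the median was -0.10, and -0.0062 with Bahd1-KO replicate 3 left out besides. Neuron markers, which share the tissue with these genes, had a median of -0.30 over 10 genes and of 0.01 without Bahd1-KO replicate 3, and 10 progenitor markers had -0.27 and 0.08. With the GC correction the neuron markers were at -0.41 and the progenitor markers at -0.098, and at -0.033 and 0.048 with Bahd1-KO replicate 3 left out besides.

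Genes with a pattern over the embryos most like that of each member were sought among 9997 protein-coding genes. Pearson correlation of log2 CPM over the 6 embryos was used, as a description of points that share libraries, depth and GC content. It does not depend on the size of a change, and the values given are the highest among those 9997 genes. Nearest to Rest were Kdelc1 (r = 0.9996) and Anln (r = 0.999), and Anln, a cytokinesis protein, was at 24.4, 16.7 and 127 CPM in KO embryos against 19.5, 16.7 and 20.1 in WT embryos. Nearest to Rcor2 were Sdccag3 and Emc8, and nearest to Kdm1a were Aptx and Tmem57, with r from 0.999 to 1.00 for all 4. Sdccag3 ran only from 39.5 to 79.7 CPM, whereas Rcor2 ran from 4.97 to 80.5. Sin3b was nearest to Clpp and Flad1, and Rcor3 to Frs2 and Phc3. Rcor1 was nearest to Nup98 (r = 0.980) and Ino80 (r = 0.977), and Sin3a to Plce1 (r = 0.979) and Specc1l (r = 0.965). Over the 5 embryos without Bahd1-KO replicate 3, r ran from 0.935 to 0.999 for the genes named here.

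Correlations between members took both signs. Rest and Kdm1a, whose proteins meet in 1 complex, had r = -0.94 over the 6 embryos and r = 0.56 over the 5 without Bahd1-KO replicate 3. Rcor2 and Sin3b had r = 0.90 over 6 embryos and 0.96 over 5, and Rcor2 and Rcor3 had -0.71 and -0.93. These values describe few embryos, which share library properties.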

How the data were processed

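Per the labels and the study's methods, the authors extracted total RNA from whole E16.5 brains, enriched it for polyadenylated RNA and sequenced stranded TruSeq libraries in repeated single-end runs. The deposited values were unnormalized counts of reads over the exons of each gene, in 1 column for each embryo. The submitters' processing notes name cutadapt 1.11, STAR 2.5.0a and featureCounts 1.4.6-p3 on GRCm38. The supplement also names TopHat2, so the aligner of this table is uncertain. All 6 columns were mapped by title. Replicates were embryos, of which the litters are not given in the sources used here.

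Genes whose counts summed to 10 or more were tested with the edgeR 4.0.16 quasi-likelihood test (R 4.3.3), two-sided, with TMM factors and a genotype term. DESeq2 1.42.0 and limma 3.58.1 (voom) served as alternatives. The script was tested on simulated counts. Lengths, positions and GC content came from GENCODE M21, which matched 53620 genes (99.7%). A pair of list symbols were matched under another symbol, Sinhcaf as Fam60a and Scn2a1 as Scn2a.

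Members and lists were chosen with earlier results of these data known. Genes named were the 7 members, Bahd1, the 3 most abundant and the 2 with the largest difference (mean of at least 1 CPM) of each partner, regulator and target list, the 2 best correlated with each member (mean of at least 10 CPM), and the 3 target genes with the fewest mismatches to RE1, besides those said in the text to be chosen later. Alternatives were run for the filter, the scaling, the tool, ribosomal, mitochondrial and small RNA genes left out, the replicate number as a block, and each embryo left out in turn. A GC correction (lowess, span 0.3), the same without Bahd1-KO replicate 3, and the longest transcript as the length were added after seeing the data.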

Additional observations from a re-analysis of the deposited data

How the results depend on the processing

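None of the 7 members was called under any of 18 alternatives, with adjusted p-values from 0.235 to 1.00. Rest stayed above zero and Sin3b below zero in all of them, whereas the other 5 members changed sign somewhere. With total counts in place of TMM factors, Rcor1 was at -0.087, Rcor3 at -0.073 and Sin3a at -0.19 (log2). Sin3a was at -0.067 with voom. With the GC correction, chosen after seeing the data, Rcor3 was at -0.070, and with Bahd1-KO replicate 3 left out besides, Rcor1 was at -0.011, Rcor2 at 0.022, Rcor3 at -0.11, Kdm1a at 0.085 and Sin3a at -0.10. Leaving out each embryo in turn gave 0.11 to 1.10 for Rest, -0.0022 to 0.23 for Rcor1, -1.75 to -0.54 for Rcor2, 0.02 to 0.19 for Rcor3, -0.70 to -0.05 for Kdm1a, -0.090 to 0.079 for Sin3a, -1.16 to -0.45 for Sin3b and -8.78 to -8.01 for Bahd1. Rcor2 and Sin3b were lowest without Bahd1-KO replicate 2 and Kdm1a without Bahd1-KO replicate 1, and Rest, Rcor2, Kdm1a and Sin3b were nearest zero without Bahd1-KO replicate 3. The ratio differences ran from -2.40 to -0.49 for Rcor2 to Rcor1, from -1.21 to -0.40 for Sin3b to Sin3a and from 0.11 to 0.74 for Rest to Rcor1. Sin3b was the only member with an unadjusted p under 0.05 with voom (0.030, adjusted 0.535), where 8.95% of all genes tested had one. Without Bahd1-KO replicate 2, Rest (0.037) and Sin3b (0.016) had one, where 20.2% of all genes tested did. These unadjusted p-values came from limma and edgeR over all genes. The cause of these shifts was not tested.

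The number of genes called was 1 in the main fit, 8 with DESeq2, 6 with voom, 6 with the GC correction without Bahd1-KO replicate 3, and 0 where every embryo had at least 10 counts (452 genes at an unadjusted p under 0.05) or where ribosomal, mitochondrial and small RNA genes were left out (1056 unadjusted). The filter of at least 10 counts in every embryo removed Bahd1 itself, which had 2, 10 and 6 counts in KO embryos. The number called ran from 0 to 4 on leaving out each embryo, with 4 without Bahd1-KO replicate 3. Bahd1 had a log2 fold change of -8.41 with ribosomal, mitochondrial and small RNA genes left out, where it missed the threshold (adjusted p = 0.0541 by edgeR), and it missed the threshold without each embryo other than Bahd1-KO replicate 3 (adjusted p up to 0.685). Same-numbered KO and WT embryos had correlations of 0.12, 0.22 and -0.09. Those of embryos with unlike numbers were not computed, so pairing by replicate number was not tested. With the replicate block 0 genes were called (517 unadjusted), Bahd1 was at -8.49 (adjusted p = 0.229), Rest at 0.62, Rcor2 at -1.30 and Sin3b at -0.74, and no member was called. With 3 embryos per genotype, of which 1 stood apart, differences smaller than the intervals given could not be seen.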
